A study of Homo sapiens with 6 samples.

Results

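The lambda, or type III, interferons are a family of secreted antiviral cytokines, and 3 of its genes, IFNL1 (older symbol IL29), IFNL2 (IL28A) and IFNL3 (IL28B), have a row on the array used here. They were taken as the rows whose gene symbol in the array's probe annotation was 1 of these 3 names. This rule reads no measured value, but the family was picked with earlier results of these data known. Each gene had 1 transcript cluster, a group of probes that read 1 locus, so the members are 3 of 33297 clusters and 3 of 18417 genes with a symbol of their own. IFNL4 was not analysed here. RNA of HEK293 cells, an established human embryonic kidney line obtained from ATCC, was read on 6 Affymetrix Gene 1.0 ST arrays, 3 titled control and 3 titled treatment. The question posed was which gene products could carry an anti-HIV effect seen after empty-plasmid transfection, and the series title names the DNA-binding protein Ku70 as a sensor that leads to type III interferon. The labels disagree on the control cells: by the source field they received a transient vector and the treatment cells received a Neo vector, whereas the design text sets untreated cells against pCMV9-transfected ones. No dose, time after transfection or passage is given in the sources used here, and 1 transformed line stands for all cells. Since no label calls the replicates separate cultures, a p-value here reflects array-to-array spread that may be technical alone.

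Lambda interferons are distant relatives of interleukin 10. They bind a receptor made of IFNLR1, which is specific to them, and IL10RB, which they share with other cytokines of that family, and the kinases JAK1 and TYK2 then pass the signal on to transcription factors, IRF9 among them, that switch on antiviral genes. Type I interferons reach the same transcription factors through another receptor. IFNLR1 is found mainly on epithelial cells, and the lambda interferon genes are themselves switched on by interferon regulatory factors and NF-kB after a cell senses foreign nucleic acid.

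The stretch before each start site is shown because the 3 genes lie side by side in the order of protein-coding genes used here and differ in how alike these stretches are. Both sequences are from RefSeq (GRCh38.p14) and give the 250 bases before the start site, 5′ to 3′ on the gene's strand. Capitals mark matches, on either strand, to GAAANNGAAA, the core of the interferon-stimulated response element that interferon regulatory factors bind. The IFNL1 window is chr19:39296157-39296406 (plus strand), and the IFNL2 window is chr19:39268146-39268395 (plus strand).
IFNL1: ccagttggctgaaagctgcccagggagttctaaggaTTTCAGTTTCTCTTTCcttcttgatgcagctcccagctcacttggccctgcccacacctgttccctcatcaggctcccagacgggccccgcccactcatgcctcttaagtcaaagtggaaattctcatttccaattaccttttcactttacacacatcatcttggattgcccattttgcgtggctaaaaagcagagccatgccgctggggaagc
IFNL2: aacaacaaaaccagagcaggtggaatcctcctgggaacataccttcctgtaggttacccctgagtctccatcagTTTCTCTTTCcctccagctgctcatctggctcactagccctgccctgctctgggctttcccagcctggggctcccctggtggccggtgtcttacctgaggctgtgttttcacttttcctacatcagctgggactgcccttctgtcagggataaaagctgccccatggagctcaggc

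The window of IFNL3, chr19:39245251-39245500 on the minus strand, is not printed because it equals that of IFNL2 at 249 of 250 bases. The single difference is C31T, counted from 1 at the 5′ end of the window, with the IFNL2 base first. RefSeq also lists a second start site of IFNL3, with the window chr19:39245007-39245256 on the same strand, in which none of the 3 motifs searched was found. IFNL1 shares less, with 54.4% identity to IFNL2 over a global alignment that includes gaps. The interferon response core was found once in IFNL2 and in IFNL3, at positions 75 to 84, and in IFNL1 as a pair of overlapping matches at positions 37 to 46 and 43 to 52. Of 35116 RefSeq windows of this length, 3.02% held a match. The NF-kB consensus was found in IFNL2 and IFNL3 at positions 141 to 150 and not in IFNL1, and 5.21% of all windows held it. The AP-1 motif TGANTCA, searched on both strands like the others, was in none of these windows, beside 6.57% of all windows. Of the 95 genes that rose in the treatment arrays (below), 73 had a window in the table, and 36 of these windows (49.3%) held the interferon response core, those of IFNL1 and IFNL2 among them, beside 2.57% for the 14239 array genes with a window. The NF-kB consensus was in 19.2% of the 73 windows against 5.78%, and the AP-1 motif in 11.0% against 4.91%. A match in such a window is a description of letters and not of a bound site.

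Values are linear intensities as deposited, in arbitrary units. Median intensity per array ran from 77.2 to 84.2, and Pearson's r between arrays from 0.956 to 0.985 across clusters. Treatment replicate 3 correlated least with the other 5 arrays (mean r 0.963), so values without it are given for the members. Of 7 markers of HEK293 cells 6 were bright on every array, that is, above the 95th percentile of 381 olfactory receptor clusters, a class of genes not usually active outside the nose. The same was true of 1 of 6 measured leukocyte and dendritic cell markers, the monocyte marker CD14, and of 0 of 3 liver markers. Summed over its 6 genes, the leukocyte list gave 249 to 319 in control and 274 to 375 in treatment arrays, and none of its genes passed the test; its part in the results was not tested.

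IFNL1 and IFNL2 rose in the treatment arrays, and IFNL3 did not pass the test across all clusters. IFNL1, a cytokine active on epithelial cells, read 16.4, 21.7 and 27.9 on control replicates 1 to 3 and 114, 178 and 162 on treatment replicates 1 to 3. Every treatment array was thus above every control array, with replicate 1 the lowest of the treatment arrays. The group means were 22.02 ± 5.76 (SD, n = 3) and 151 ± 33.0 (SD, n = 3), a ratio of 6.88 that depends on background, since the control values lay below the 95th percentile of the olfactory receptor clusters. On the log2(intensity + 16) scale, used for every test below and called the log2 scale, IFNL1 rose by 2.13 ± 0.222 (SE), with a 95% interval from 1.65 to 2.61 (limma, adjusted p = 0.000173).

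IFNL2, a cytokine of the same function, read 0.889, 6.53 and 9.41 on the same control arrays and 79.4, 111 and 101 on the treatment arrays. Here too the groups did not overlap and treatment replicate 1 was the lowest of its group. The means went from 5.61 ± 4.34 (SD, n = 3) to 97.1 ± 16.1 (SD, n = 3), and the log2 change was 2.40 ± 0.221 (SE), with a 95% interval from 1.92 to 2.87 (limma, adjusted p = 5.8e-05).

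IFNL3, the near-identical neighbour of IFNL2, read 104, 116 and 83.6 on control arrays and 142, 210.05 and 240.1 on treatment arrays. The groups did not overlap here either, but treatment replicate 1 lay close to control replicate 2. The means were 101 ± 16.6 and 198 ± 50.01 (SD, n = 3 each), a ratio of 1.95. The log2 change of 0.85 ± 0.229 (SE) had a 95% interval from 0.35 to 1.34, and its unadjusted p of 0.00256 became 0.346 after adjustment over all clusters (limma). Without treatment replicate 1 the change was 1.05 (limma, adjusted p = 0.0966), and without treatment replicate 3 it was 0.70 (adjusted p = 0.442); over its 17 alternatives the adjusted p ran from 0.0777 to 0.933.

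In this comparison 124 of 33297 clusters passed (0.372%), 119 as rises (0.357%) and 5 as falls (0.015%), and 2 of the 3 lambda interferons were among the rises. Leaving out control replicate 1 cut the 124 to 69, and leaving out treatment replicate 2 cut it to 82. Every treatment array lay above every control array for 3 of the 3 members, as it did for 7.47% of all clusters. Over all clusters the median log2 change was 0.0116. In bulk RNA, more cells that express a gene and more RNA per expressing cell cannot be told apart. IFNL2 and IFNL3 are close copies, the probe sequences were not used here, and whether probes of one also bind RNA of the other was not tested.

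**Figure D1:**
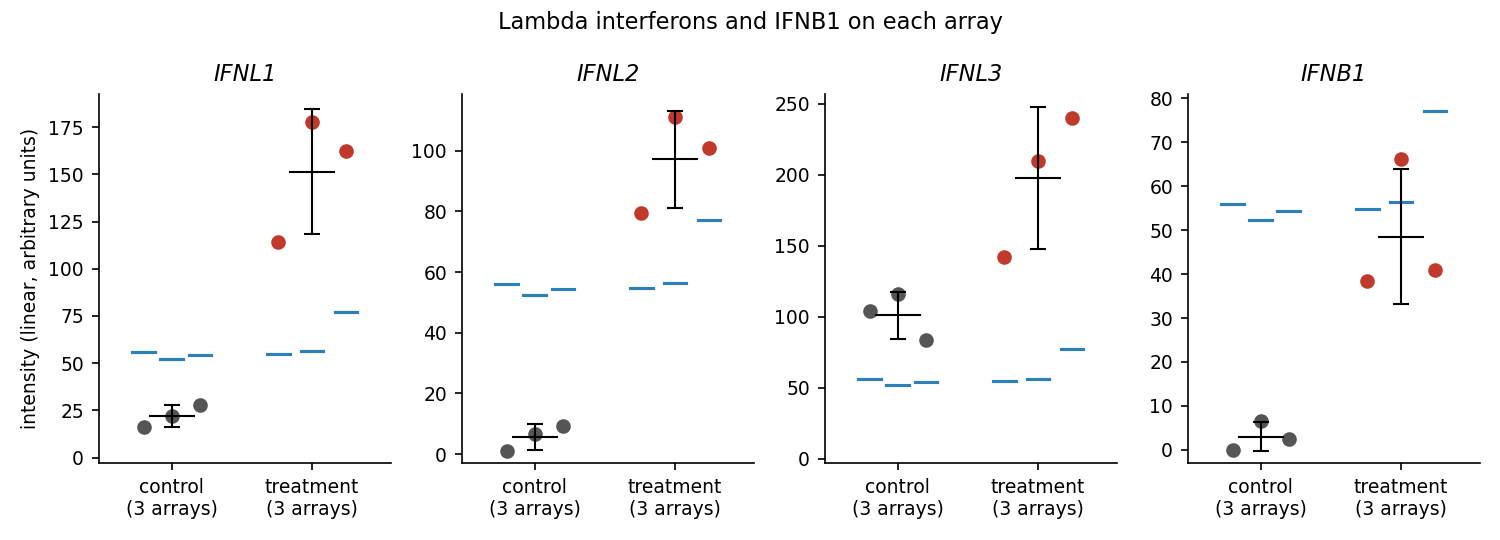
Linear intensity (y axis, arbitrary units, a separate scale per panel) of IFNL1, IFNL2, IFNL3 and the type I interferon gene IFNB1 on 3 control (grey) and 3 treatment (red) arrays, with black bars for the mean ± SD and a blue dash for each array's 95th percentile of olfactory receptor clusters. The control values of IFNL1 and IFNL2 lie below the blue dashes and all their treatment values above, whereas IFNL3 lies above them on all 6 arrays and IFNB1 on 1 treatment array.

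The members started from different places: IFNL1 and IFNL2 among the dim rows and IFNL3 above the median cluster. In the control arrays IFNL1 and IFNL2 were below the 95th percentile of the olfactory receptor clusters (52.4 to 56.02) on 3 of 3 arrays each, so their control signal cannot be told from that of genes taken to be silent. In the treatment arrays, where this percentile was 54.8, 56.5 and 77.2, both were above it on 3 of 3 arrays. IFNL1 reached 2.09, 3.15 and 2.10 times the percentile in treatment replicates 1, 2 and 3, and IFNL2 1.45, 1.97 and 1.31 times. IFNL3 was already above it on all 3 control arrays (1.54 to 2.22 times) and stood at 2.60 to 3.72 times in the treatment arrays. By control mean IFNL1 lay at percentile 26.8 of all clusters, IFNL2 at 7.13 and IFNL3 at 54.3, and by treatment mean at 61.5, 52.8 and 66.8. These ranks describe signals of different probes and do not order the genes by RNA amount.

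Rows of similar control intensity seldom moved as far. Among 2739 other clusters with a control mean from 20% below to 25% above that of IFNL1, 8 rose (0.292%), 0 fell, the median log2 change was 0.12 and 90% of changes lay between -0.38 and 0.58. Of these rows 5 changed by at least as much as IFNL1. Among 1252 clusters near IFNL2, 2 rose (0.16%), 0 fell, the median was 0.0499, and 1 changed by at least as much as IFNL2. Among 2641 clusters near IFNL3, 14 rose (0.53%), 0 fell, the median was 0.0109, and 21 (0.795%) changed by at least as much as IFNL3. Over all clusters 0.357% rose and 0.015% fell, so the 0 falls say little about these rows. Treatment arrays lay above control arrays without overlap in 10.7%, 8.79% and 6.97% of the rows near IFNL1, IFNL2 and IFNL3. Among the 381 olfactory receptor clusters there were 0 limma calls and 28 rows (7.35%) with an unadjusted p under 0.05. Of all clusters 0.372% were called and 7.30% had such a p, so the 0 calls say little about this class. The median change of the olfactory receptor clusters was 0.12 and their largest 0.74, below the change of each member.

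**Figure D2:**
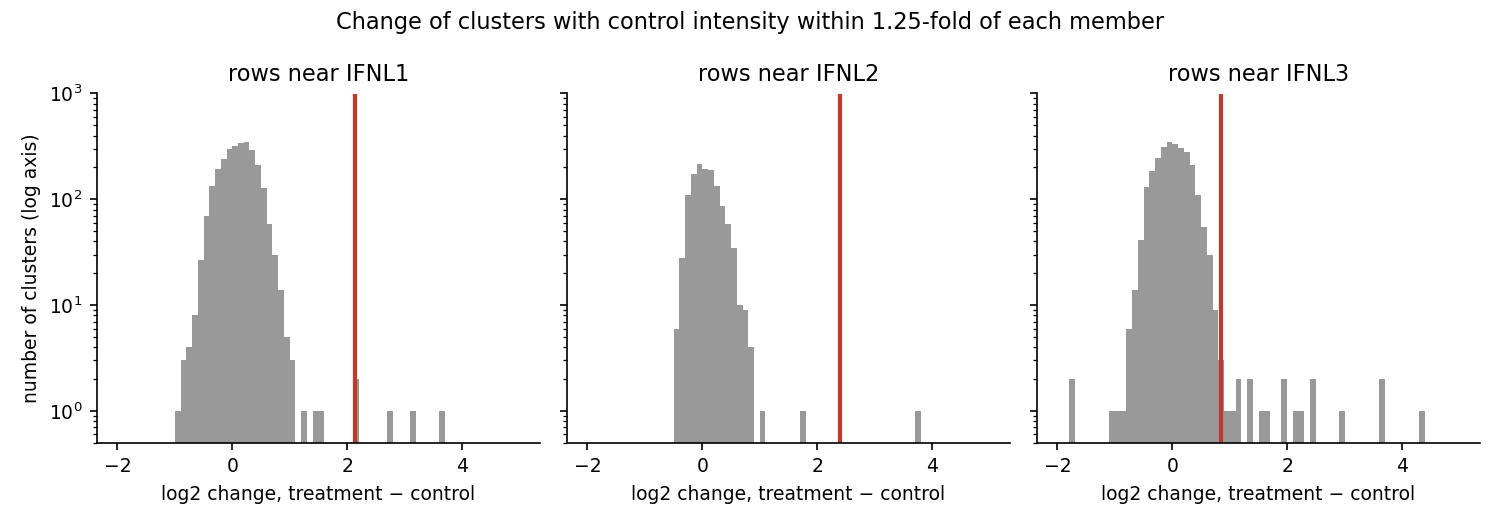
Number of clusters (y axis, log scale) by log2 change, treatment minus control (x axis, bins of 0.1), among clusters whose control mean lies from 20% below to 25% above that of IFNL1, IFNL2 or IFNL3; the red line is the member itself. IFNL1 at 2.13 and IFNL2 at 2.40 lie clear of the main body of similar rows, and IFNL3 at 0.85 lies at its upper edge.

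The members changed by unequal amounts on the log2 scale, but the exact test used here could not call any of these differences. For each array the log2 value of 1 gene was taken from that of another, and the 6 pairs among IFNL1, IFNL2, IFNL3 and IFNB1 were compared between groups with a two-sided exact permutation test, which with 3 against 3 cannot go below 0.1. IFNL2 changed by 1.55 more than IFNL3: the difference ran from -2.83 to -1.97 in control arrays and from -1.13 to -0.73 in treatment arrays (exact p = 0.1, adjusted over the 6 pairs 0.12). IFNL1 changed by 1.28 more than IFNL3, again with no overlap between the groups (exact p = 0.1, adjusted 0.12). Between IFNL1 and IFNL2 the difference was -0.27 (exact p = 0.1, adjusted 0.12), and it turned to 0.0732 with an offset of 50.

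The order of the changes depended on the scale. In linear intensity the treatment mean exceeded the control mean by 129 units for IFNL1, 91.5 for IFNL2 and 96.3 for IFNL3, so on that scale the change of IFNL2 minus that of IFNL3 was -4.75 (exact permutation p = 1, adjusted 1), and IFNL1 changed by 37.98 units more than IFNL2 (exact p = 0.1, adjusted 0.2). IFNL2 and IFNL3 thus gained amounts that differed by less than the spread between arrays, from control means of 5.61 and 101. Probes differ in how brightly they report the same RNA, so these units do not compare amounts between genes.

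The genes on either side of the family did not pass, as was true of nearly all clusters. Only genes listed as protein-coding were counted in the RefSeq gene order. In that order IFNL3, IFNL2 and IFNL1 lie next to each other. The nearest 5 such genes are FBXO27, ACP7, PAK4, NCCRP1 and SYCN on the IFNL3 side and LRFN1, GMFG, SAMD4B, PAF1 and MED29 on the IFNL1 side. Of these 10 neighbours 0 passed limma over all clusters and 0 had an unadjusted p under 0.05, beside 0.372% and 7.30% of all clusters, so these counts say little about the neighbours. Their median log2 change was -0.12 and their range -0.36 (GMFG) to 0.36 (ACP7). SYCN, which encodes a protein of pancreatic secretory granules and lies next to IFNL3, gave 464, 413 and 352 in control and 495, 491 and 588 in treatment arrays, which is 0.35 ± 0.203 (SE) on the log2 scale (limma, adjusted p = 0.722). LRFN1, an adhesion protein gene next to IFNL1, gave 0.21 ± 0.232 (adjusted p = 0.857), which turned to -0.0131 without control replicate 1. The upper 95% bound of the 10 changes was at most 0.81, below the lower bounds of IFNL1 and IFNL2.

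**Figure D3:**
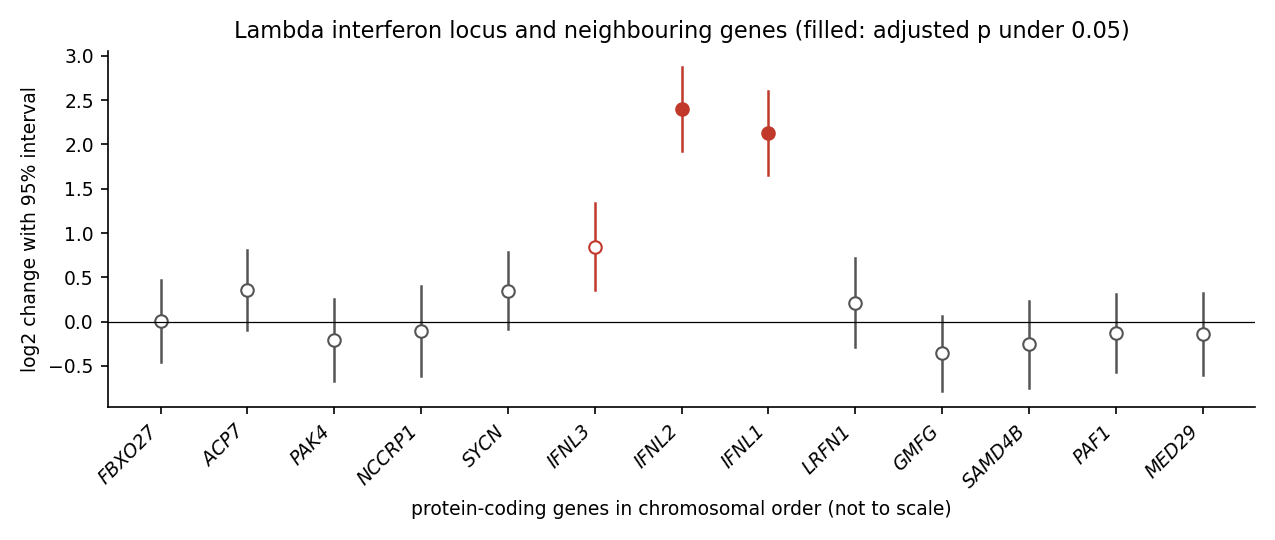
Log2 change, treatment minus control, with its 95% interval (y axis) for the 3 lambda interferons (red) and the 10 nearest protein-coding genes (grey) in chromosomal order (x axis, not to scale); filled points passed limma over all clusters. Only IFNL2 (2.40) and IFNL1 (2.13) are filled, and all 10 neighbours lie between -0.36 and 0.36.

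Among the other interferons, IFNB1, the type I interferon that most cell types make first, passed. It gave 0.0029, 6.50 and 2.54 in control and 38.5, 66.2 and 40.9 in treatment arrays, which is 1.75 ± 0.228 (SE) on the log2 scale (limma, adjusted p = 0.00148). IFNB1 kept no call under another offset: its adjusted p was 0.058 at 50, 0.156 at 1 and 0.71 without any. On the treatment arrays IFNB1 was above the olfactory receptor 95th percentile on 1 of 3, where IFNL1 and IFNL2 were above it on 3 of 3. IFNL1 changed by 0.38 more than IFNB1 on the log2 scale (exact permutation p = 0.2, adjusted 0.2), a difference of -1.27 when 1 was added and of -4.22 when nothing was. IFNL2 changed by 0.65 more than IFNB1 (exact p = 0.1, adjusted 0.12), which turned to -2.35 with a plain log2. This test, whose smallest p is 0.1, could not call type III and type I genes unequal. Of 18 type I and II interferon genes 13 had a row of their own. Of these 1 rose, 0 fell and 12 did not pass, where 0.357% of all clusters rose and 0.015% fell, and the median change was 0.19. Of the 13, 0 were above the olfactory percentile on every treatment array. The other 6 cytokines of the interleukin 10 family had 0 calls, 0 with an unadjusted p under 0.05, and a median of 0.0347. Over all clusters these shares were 0.372% and 7.30%, so counts of 0 among 6 genes say little about them. IL24 was the brightest, with means of 77.6 and 85.5.

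The receptor for lambda interferons was read in both groups and did not pass. IFNLR1, the specific chain, gave 63.6, 89.2 and 73.6 in control and 80.7, 84.0 and 116 in treatment arrays, above the olfactory 95th percentile on all 6. Its groups overlapped, and its log2 change was 0.26 with a 95% interval from -0.20 to 0.71 (limma, adjusted p = 0.802). IL10RB, the shared chain, gave 331 to 407 in control and 235 to 395 in treatment arrays, a change of -0.21 (-0.70 to 0.29; adjusted p = 0.86) that came to 0.0129 without treatment replicate 3. Of the 5 genes of the receptor and signal chain with a row, 0 passed and 1 had an unadjusted p under 0.05: IRF9, a DNA-binding factor of interferon signalling, changed by 1.02 ± 0.227 (adjusted p = 0.136) and passed under 4 of 17 alternatives, among them the removal of treatment replicate 1 (adjusted p = 0.0189). The kinases TYK2 (-0.43 ± 0.208) and JAK1 (-0.21 ± 0.209) did not pass, and the median of the 5 was -0.21. Of all clusters 0.372% passed and 7.30% had an unadjusted p under 0.05, so a count of 0 among 5 genes says little. Of 3 feedback inhibitors, USP18, which blocks type I more than type III receptor signalling, rose by 1.84 ± 0.195 (limma, adjusted p = 0.000204), while SOCS3 (0.88 ± 0.293, adjusted p = 0.563) and SOCS1 (0.57 ± 0.287, adjusted p = 0.698) did not pass; the median of the 3 was 0.88.

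Of 9 transcription factors and kinases of lambda interferon induction, 2 rose and 0 fell, 7 stayed short of the threshold, and the median was 0.18. The shares over all clusters were 0.357% for rises and 0.015% for falls, so the 0 falls say little here. IRF7, a main activator of interferon genes, gave 85.6, 98.5 and 82.2 in control and 214, 308 and 478 in treatment arrays, a log2 change of 1.67 ± 0.258 (limma, adjusted p = 0.00699), lost under 4 of 17 alternatives (adjusted p up to 0.3), among them the removal of control replicate 1 (adjusted p = 0.102). IRF1, linked to type III induction in epithelial cells, gave 77.3, 85.5 and 85.8, then 166, 239 and 204, a change of 1.13 ± 0.205 (adjusted p = 0.0254), lost under 8 of 17 (adjusted p from 0.000904 to 0.285 over the 17). Its adjusted p was 0.198, 0.141 and 0.122 without control replicate 1, 2 or 3, 0.285 without treatment replicate 2 and 0.0823 without treatment replicate 3. IRF3, which is switched on by phosphorylation rather than by more transcript, gave -0.18 (95% interval -0.69 to 0.34; adjusted p = 0.892), and 0.0122 without treatment replicate 1. The repressor of interferon genes PRDM1 gave 0.28 ± 0.242 and the NF-kB subunit RELA -0.25 ± 0.216, neither past the test.

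Of 13 nucleic acid sensors and adaptors upstream of the lambda interferons, 4 rose and 0 fell, 9 stayed short of the threshold, and the median was 0.11. Over all clusters 0.357% rose and 0.015% fell, so the 0 falls say little about this list. The rises were those of the RNA helicases RIGI (2.56 ± 0.207) and IFIH1 (2.45 ± 0.209), the endosomal RNA receptor TLR3 (2.39 ± 0.219) and the DNA-binding protein IFI16 (1.86 ± 0.222, a call lost on plain log2 values or when 1 was added). Whether these rises, or those of IRF1 and IRF7, came before or after those of IFNL1 and IFNL2 was not tested. XRCC6, which encodes Ku70, gave 2925, 3328 and 3287 in control and 3005, 2777 and 2678 in treatment arrays. Its groups overlapped, with a log2 change of -0.17 and a 95% interval from -0.59 to 0.24 (limma, adjusted p = 0.862).

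The antiviral genes that lambda and type I interferons both switch on rose together with IFNL1 and IFNL2. Of 22 measured, 21 rose, 0 fell and 1 did not pass (EIF2AK2, the kinase PKR, 0.82 ± 0.211; limma, adjusted p = 0.292), and their median change was 3.36, where 0.357% of all clusters rose. The lowest p values were those of RSAD2 (4.59 ± 0.238), IFI44 (4.11 ± 0.229), IFIT2 (4.31 ± 0.242) and IFIT3 (3.40 ± 0.196), each with a limma adjusted p of 8.88e-07. Among the treatment arrays replicate 1 was lowest for 3 of 3 lambda interferons and for 19 of the 22 antiviral genes (86.4%), where 31.2% of all clusters were lowest on it. So were IFNB1, 5 of the 6 other interleukin 10 family cytokines (83.3%), none of which passed, 2 of 3 feedback inhibitors and 3 of 5 receptor chain genes. The share was 46.2% for sensors and adaptors and 44.4% for induction factors. It was 30.8% for type I and II interferons and 30% for neighbours, near that of all clusters. This order was thus also seen in genes that did not pass, but not in every list. The 22 genes respond to both kinds of interferon, so their rise does not separate the 2 kinds.

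**Figure D4:**
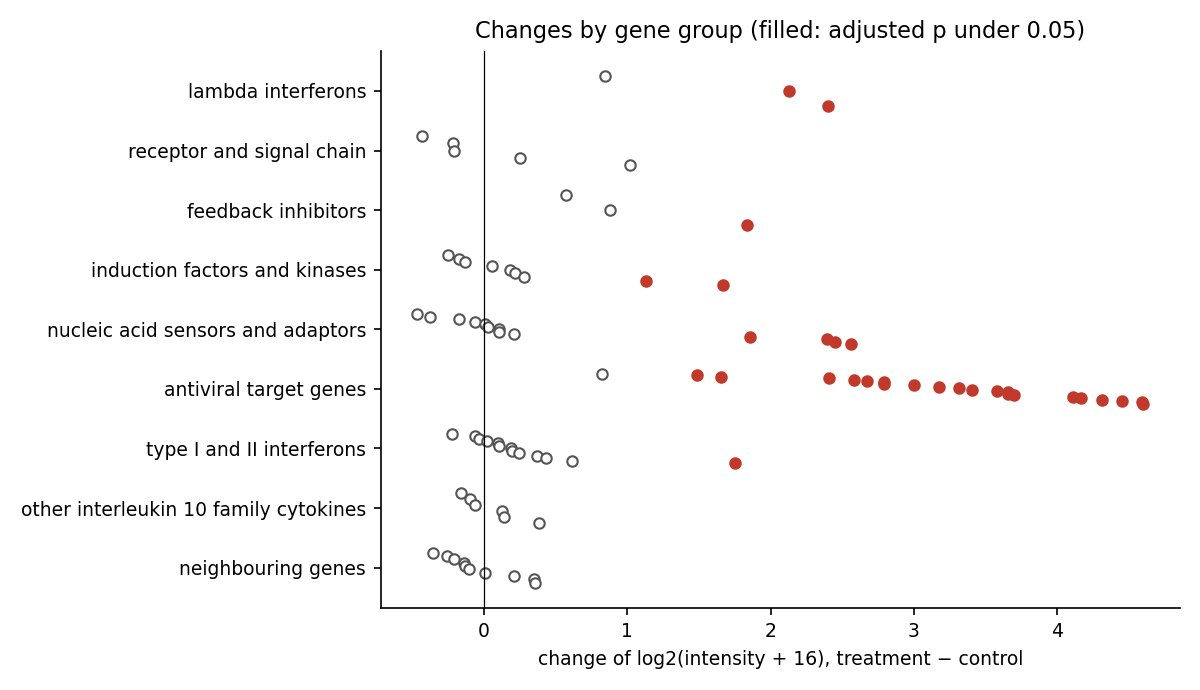
Change of log2(intensity + 16), treatment minus control (x axis), for each measured gene of the groups named on the y axis, 1 point per gene; filled red points passed limma over all clusters (adjusted p under 0.05). IFNL1 and IFNL2 lie above IFNB1 at 1.75 and below most of the 22 antiviral genes (median 3.36), while no gene of the receptor chain, of the other interleukin 10 family cytokines or of the neighbours is filled.

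Genes with the most similar profile were found by the root mean square difference, over the 6 arrays, of log2 values taken relative to the control mean. They are a description, since arrays of a group share their labels and any gene that changed by a like amount scores well. Closest to IFNL1 were HELZ2 (0.11), an interferon-induced helicase gene, TRANK1 (0.13), SAMD9 (0.16), an antiviral factor, EPSTI1 (0.16) and LAMP3 (0.18). Closest to IFNL2 were DDX60 (0.13), an antiviral helicase gene, IFIH1 (0.14), TRANK1 (0.15), HELZ2 (0.15) and RIGI (0.17). TRANK1 lay between IFNL2 and IFNL1 in the control arrays, with a mean of 15.6, and reached 139 in the treatment arrays. Closest to IFNL3 were SECTM1 (0.0718), BTN3A1 (0.0872), SHISA5 (0.0878), FFAR3 (0.0908) and CATIP (0.11), with log2 changes from 0.79 to 0.92, of which none passed limma over all clusters (adjusted p from 0.164 to 0.397).

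The calls of IFNL1 and IFNL2 depended on the offset. With a plain log2 the change of IFNL1 was 2.79 ± 0.29 (limma, adjusted p = 0.0618) and that of IFNL2 4.66 ± 0.894 (adjusted p = 0.382); with an offset of 1, IFNL1 passed (adjusted p = 0.0255) and IFNL2 did not (4.20 ± 0.611, adjusted p = 0.0885). IFNL1 passed under 16 of 17 alternatives and IFNL2 under 14 of 16, since the filter at the median intensity removes IFNL2. Without treatment replicate 3 the changes were 2.08 (adjusted p = 0.00514) and 2.37 (adjusted p = 0.00234).

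**Figure D5:**
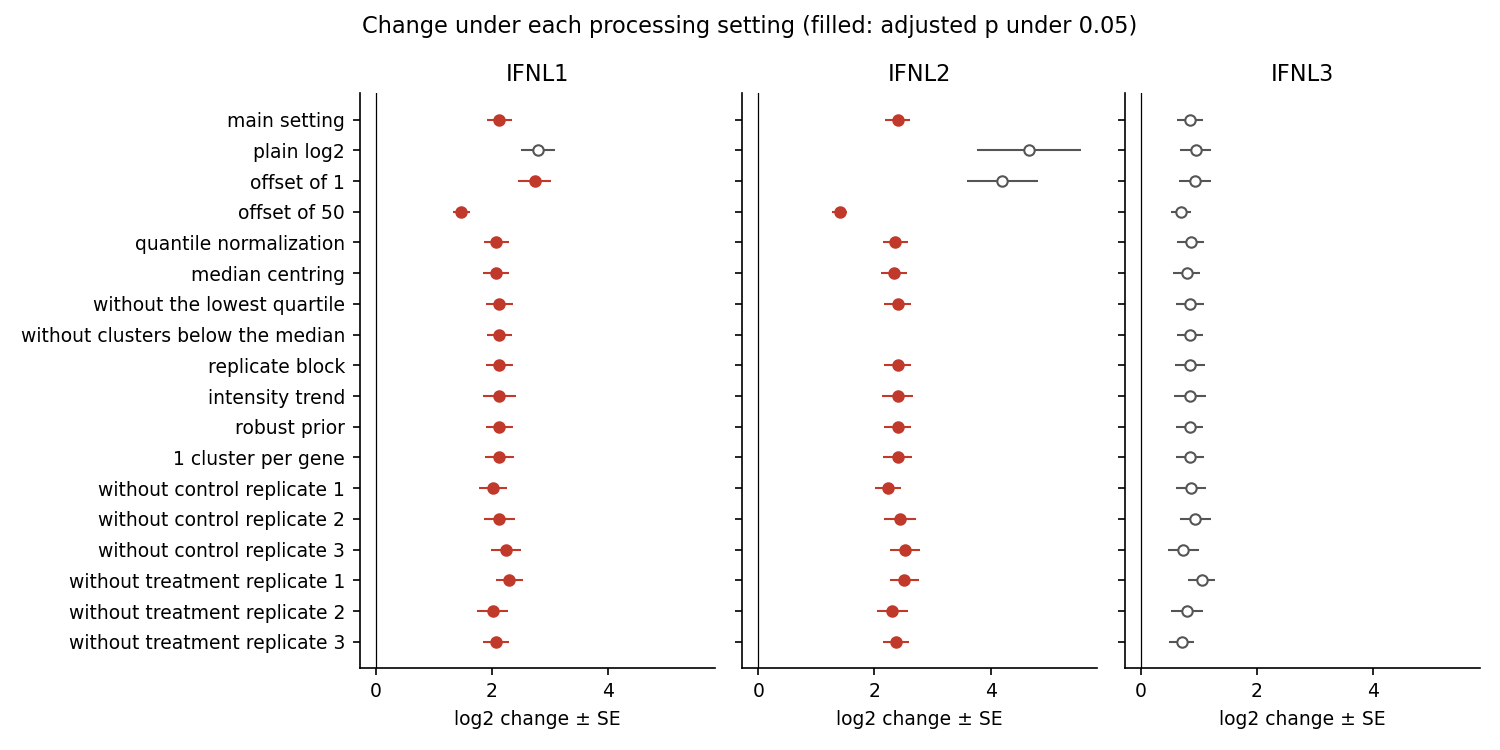
Log2 change ± SE (x axis, treatment minus control) of IFNL1, IFNL2 and IFNL3 under the main setting and each alternative (y axis); filled red points passed limma over all clusters tested (adjusted p under 0.05). The change of IFNL2 spans 1.40 (50 added) to 4.66 (nothing added), that of IFNL1 from 1.47 to 2.79, and IFNL3 is filled nowhere.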

How the data were processed

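Whole-transcript RNA levels were measured on 6 arrays of HEK293 cells. The authors deposited linear intensities, 1 per transcript cluster and array. Partek is named in the submitters' processing notes, which is all that is stated of how they were made: background correction, normalization, probe summary and build were not stated in any source used here. Columns were matched to samples by accession. By the platform annotation of 2016, 19460 clusters have 1 gene symbol, 1754 have several and 12083 have none; a gene with several clusters was represented by the brightest. The RefSeq gene table listed 19429 of the single symbols and changed 0.

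From the deposited intensities, 16 was added before log2, since plain log2 stretches values near 0; log2 changes therefore understate the change of dim rows. Each cluster was tested with limma 3.58.1 in R 4.3.3 (lmFit and eBayes, two-sided, no block) with Benjamini-Hochberg adjusted p over the 33297 clusters, called below 0.05; "rose" and "fell" mean past it. The pipeline was also run on simulated data with changes in dim and bright rows. These values were drawn on the scale with 16 added, so that run does not bear on the choice of offset. The members, gene lists, motifs and offset were chosen with earlier results of these data known. Genes named are the members, 8 chosen pathway genes and up to 4 genes of each list with the lowest p. Also named are the neighbours and the 5 closest in profile to each member. EIF2AK2, CD14 and PAX2 were named after their values were seen. Promoter windows came from RefSeq, were searched with Python 3.11.15 and aligned with Biopython 1.88. The number of arrays limits the precision. No scan dates or other batches were available to test.

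Same-numbered arrays did not deviate together (r of their deviations from the group means -0.17, 0.08 and -0.36 for replicates 1, 2 and 3), so the numbers were not treated as pairs. The alternatives were other offsets, quantile normalization, median centring, filters on dim rows, the replicate block, an intensity trend or robust prior, 1 cluster per gene, and leaving out each array. The pairwise differences in linear intensity were added after seeing the data.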

Additional observations from a re-analysis of the deposited data

How the results depend on the processing

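With 3 arrays per group, only large changes pass over all clusters, and the control signal of IFNL1 and IFNL2 lay below the olfactory receptor 95th percentile. Scale mattered most: the changes were 2.79 for IFNL1 and 4.66 for IFNL2 on plain log2 values, and 4.20 for IFNL2 when 1 was added, none past the threshold. The count of called clusters went from 124 to 40 on plain log2 values, 58 when 1 was added, 69 without control replicate 1 and 82 without treatment replicate 2, and leaving out single arrays gave 69 to 129. Leaving out single arrays moved the change of IFNL1 from 2.02 to 2.30, of IFNL2 from 2.23 to 2.53 and of IFNL3 from 0.70 to 1.05, with no call lost or gained among them. IFNL3 passed under 0 of 17 alternatives; its lowest adjusted p (0.0777) came with 1 cluster per gene, a fit in which limma gave all 3 members the same SE of 0.247. With the replicate block IFNL1 (2.13, adjusted p = 0.000304) and IFNL2 (2.40, adjusted p = 0.000124) kept their calls, 105 clusters were called, and the induction factors lost IRF1, leaving 1; control replicate 3 deviated most like treatment replicate 1 (r = 0.36), so the block rests on a number alone.

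Induction factors called were 0 on plain log2 values or when 1 was added, 1 when 50 was added, and 0 to 2 when single arrays were left out. The receptor chain had 1 call (IRF9) without clusters below the median, with an intensity trend or with 1 cluster per gene, and 0 to 1 without single arrays. Feedback inhibitors had 2 with 1 cluster per gene. Type I and II interferons had 0 on plain log2 values or when 1 or 50 was added. Counts for sensors, antiviral genes, other interleukin 10 family cytokines and neighbours stayed within 1.5 times under all alternatives run. Within that limit the antiviral calls still went from 21 of 22 to 15 on plain log2 values and to 18 when 1 was added.

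The gap between IFNL1 and IFNB1 turned to -4.22 on plain log2 values and -1.27 when 1 was added, that between IFNL2 and IFNB1 to -2.35 on plain log2 values, and that between IFNL1 and IFNL2 to 0.0732 when 50 was added. In linear intensity IFNL1 minus IFNL2 was 37.98, IFNL2 minus IFNL3 -4.75 and IFNL3 minus IFNB1 50.7 units, each against the sign on the log2 scale. Small uncalled changes turned for FBXO27 (-0.0325 with quantile normalization, -0.045 with median centring, -0.13 to 0.12 without single arrays), and, over the removal of single arrays, for NCCRP1 (-0.24 to 0.12), LRFN1 (-0.0131 to 0.34), IL24 (-0.098 to 0.27), IL10RB (-0.34 to 0.0129) and IRF3 (-0.41 to 0.0122). The percentage called among rows of similar intensity stayed within its exact 95% interval under the wider band and the 6-array mean. Why these values moved was not tested, except that a smaller offset widens changes of dim rows by construction.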
